A study of Homo sapiens with 8 samples.

Results

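Glycolytic enzymes convert glucose to pyruvate and lactate in the cytosol. The 10 genes described here encode enzymes of most steps of this pathway, with a single isoenzyme chosen for each. They are HK2, GPI, PFKP, ALDOA, TPI1, GAPDH, PGK1, ENO1, PKM and LDHA, listed by name as enzymes of the pathway, with no phosphoglycerate mutase. These genes were chosen with earlier results of these data known. They are 10 of 60725 genes in the count table and of 33854 genes with at least 1 read, and all 10 passed the filter on low counts. The libraries came from HAP1 cells, a near-haploid human line derived from a chronic myeloid leukaemia. A single clone, SC9, carried dCas9-KRAB, an inactive Cas9 fused to a repressor domain that silences the promoter to which a guide RNA takes it (CRISPRi). All cells received a lentiviral guide RNA and puromycin selection, and RNA was extracted 144 h after transduction. The control group (plasmid pLB187, 3 libraries) received a guide RNA against ADAM22, the NELFE knockdown (3 libraries) a guide RNA against NELFE, and the NELFB knockdown (2 libraries) a guide RNA against NELFB. The study's methods describe the knockdown replicates as independent biological replicates and do not say this of the control libraries, so the p-values measure the spread between these libraries. The clone, its guide vector and the selection are shared by all groups, and no cells without a guide RNA were included.

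NELFE and NELFB are subunits of the negative elongation factor, which holds RNA polymerase II in a paused state shortly after initiation. In glycolysis, hexokinase traps glucose in the cell, phosphofructokinase commits the sugar to breakdown, and the payoff steps from GAPDH onwards make ATP and pyruvate, which lactate dehydrogenase reduces to lactate. Cultured tumour lines commonly run this pathway fast also in the presence of oxygen, and many of its genes are known targets of the hypoxia-inducible factor HIF1 and of MYC.

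Each library held between 22037423 and 24444185 reads counted on genes. Levels are given as CPM, read counts scaled to a common library size by TMM normalization, which compares 1 gene between libraries, and as TPM, which also divides by exon length and compares genes with each other. As a check of the labels, NELFE fell from 49.3 ± 1.24 CPM (SD, n = 3) to 2.58 ± 0.341 CPM (n = 3) in its knockdown, and NELFB from 75.4 ± 3.32 (n = 3) to 2.92 ± 0.207 CPM (n = 2). ADAM22, the target of the control guide RNA, stood at 12.6 CPM in control cells and between 29.9 and 47.4 CPM in the knockdowns. Of the blood-cell markers, PTPRC had at most 2 reads, and ITGAM and SPI1 at most 1 read in any library, so these markers of a leukaemic line were at or near 0. CD34 had 3, 3 and 1 reads in the control libraries, 16, 6 and 28 in the NELFE knockdown and 67 and 21 in the NELFB knockdown. The epithelial keratin KRT8 had 103, 69 and 75 reads against 256, 111 and 257 and then 441 and 211, and KRT18 had 709, 632 and 693 against 935, 736 and 987 and then 1342 and 953. EPCAM stayed at 7 reads or fewer, and VIM, a mesenchymal filament gene, averaged 394, 399.7 and 390.01 CPM in the 3 groups. CD34, KRT8 and KRT18 thus moved with the groups, and their part in the results below was not tested.

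The sequences below are shown because they place the pathway beside the reagents of the study: GAPDH mRNA was its reference in quantitative PCR, and the guide RNAs define the groups. Coordinates are those of GRCh38, and each guide RNA is written without its PAM.
NELFE guide RNA, chr6:31958918-31958936, minus strand: gggcgcggccggagaccgt
NELFB guide RNA, chr9:137255369-137255387, plus strand: gccgagctggagggcgccg
GAPDH forward primer, chr12:6536964-6536982, plus strand: acgtcgtggagtccactgg
GAPDH reverse primer, chr12:6537326-6537345, minus strand: caggggtgctaagcagttgg
Each guide RNA had 1 exact match beside an NGG PAM in the genome. Near the start sites of the 10 enzymes, within 500 bases, the longest run of bases next to the PAM that matched the NELFE guide RNA was 3 or 4 bases. For the NELFB guide RNA it was 4 to 7 bases, with the 7 at PFKP, a length that 15.6% of 16645 genes scanned reached. The medians over all genes scanned were 4 and 5 bases. The GAPDH primers lie in the coding parts of exons 5 and 7 and span 200 bases of the canonical transcript. The forward primer had 2 exact matches in the genome, in GAPDH and its pseudogene GAPDHP65, and the reverse primer had 4, in GAPDH and in GAPDHP1, GAPDHP2 and GAPDHP21.

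The second set is the 250 bases before the canonical start of the 3 enzymes that fell in the pooled comparison and of LDHA, which was called in the NELFB knockdown. Capitals mark ACGTG, the core of the element that HIF1 recognises, and GCGTG, its common variant, on either strand (so CACGT and CACGC also count), with CACGTG, the E-box that MYC binds, marked where it contains ACGTG.
PFKP promoter, chr10:3067298-3067547, plus strand: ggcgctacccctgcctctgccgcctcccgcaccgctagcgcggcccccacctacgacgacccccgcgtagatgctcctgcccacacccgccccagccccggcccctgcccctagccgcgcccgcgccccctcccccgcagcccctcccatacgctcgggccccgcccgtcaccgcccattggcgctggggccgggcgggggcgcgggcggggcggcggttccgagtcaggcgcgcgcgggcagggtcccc
GPI promoter, chr19:34364946-34365195, plus strand: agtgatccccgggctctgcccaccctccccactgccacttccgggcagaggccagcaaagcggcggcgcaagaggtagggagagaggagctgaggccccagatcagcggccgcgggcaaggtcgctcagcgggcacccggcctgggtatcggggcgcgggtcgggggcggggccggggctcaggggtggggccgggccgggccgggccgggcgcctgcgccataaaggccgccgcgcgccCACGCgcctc
ENO1 promoter, chr1:8878687-8878936, minus strand: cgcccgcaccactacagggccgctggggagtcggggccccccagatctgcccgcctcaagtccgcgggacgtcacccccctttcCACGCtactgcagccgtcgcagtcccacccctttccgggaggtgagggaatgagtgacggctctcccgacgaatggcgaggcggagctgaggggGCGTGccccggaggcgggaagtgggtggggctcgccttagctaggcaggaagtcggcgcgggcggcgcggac
LDHA promoter, chr11:18394313-18394562, plus strand: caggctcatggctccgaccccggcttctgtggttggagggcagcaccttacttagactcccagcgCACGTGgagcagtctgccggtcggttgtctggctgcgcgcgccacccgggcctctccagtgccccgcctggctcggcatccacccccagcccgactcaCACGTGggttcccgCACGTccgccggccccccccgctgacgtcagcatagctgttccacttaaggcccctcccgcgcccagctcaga
ACGTG was found in 5 of the 10 promoters (HK2, ALDOA, GAPDH, PGK1 and LDHA), against 21.6% of 16645 promoters of the same length. GCGTG was found in 5 of 10 (HK2, GPI, GAPDH, PGK1 and ENO1), against 43.9%. CACGTG was in the LDHA promoter alone among the 10, against 8.15%, and TATAAA in the GAPDH promoter alone, against 6.73%. The letters CCGCCC, the core of the site that SP1 binds, were in 8 of 10, against 63.7%. The PFKP, TPI1 and PKM windows held neither ACGTG nor GCGTG, so the enzymes called lower included windows with and without these letters. The median GC content was 71.2% for the 10 windows and 64.8% for all.

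In control cells the 10 mRNAs were abundant and covered a wide range of levels. GAPDH, which oxidises glyceraldehyde 3-phosphate, led with 3030 ± 350 TPM (SD, n = 3 here and below). Enolase 1 (ENO1) followed with 1817 ± 124 TPM, pyruvate kinase (PKM) with 1408 ± 118 TPM and triosephosphate isomerase (TPI1) with 1157 ± 94 TPM. With merged exon lengths, the ranges of these 4 genes over the control libraries did not overlap those of their neighbours in the order. Phosphoglycerate kinase (PGK1) at 905 ± 50 TPM, aldolase A (ALDOA) at 855 ± 64 TPM and lactate dehydrogenase A (LDHA) at 792 ± 83 TPM formed the next block. In this block each gene's range overlapped that of its neighbour. Glucose 6-phosphate isomerase (GPI) had 194 ± 13 TPM. The enzymes of the regulated early steps, hexokinase 2 (HK2) at 123 ± 22 TPM and platelet-type phosphofructokinase (PFKP) at 97.9 ± 6.7 TPM, were lowest, and their ranges overlapped. With the length of the canonical transcript in place of all merged exons, 6 of 10 places in this order were kept, LDHA moved up to place 5 with 1237 TPM, PGK1 moved down to place 7 with 594 TPM, and PFKP and HK2 changed places. GAPDH, ENO1 and PKM then had 3283, 3093 and 3043 TPM with overlapping ranges.

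The deposited counts hold uniquely placed reads, and several of these genes have processed pseudogenes with nearly the same sequence. Annotated pseudogenes named after GAPDH numbered 65, of which 37 had reads, and together they held 0.169% as many reads as GAPDH itself. The share was largest for LDHA, whose 6 pseudogenes held 2.12% as many reads as the gene, and for TPI1 it was 0.549%. Adding these reads kept all 10 places in the order of levels. Reads that matched a gene and a pseudogene equally well are not in the counts, so the levels of GAPDH, LDHA and TPI1 are uncertain in this respect.

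Taken as a sum, the 10 genes held 1.09% (95% Wilson interval 1.08 to 1.09), 1.17% (1.16 to 1.17) and 1.23% (1.23 to 1.24) of all counts in the control libraries. In the NELFE knockdown they held 1.05% (1.05 to 1.05), 1.05% (1.05 to 1.06) and 1.15% (1.15 to 1.16), and in the NELFB knockdown 0.994% (0.990 to 0.998) and 0.977% (0.973 to 0.981). Both NELFB libraries were below every other library, while NELFE replicate 3 lay inside the control range. In such bulk libraries, fewer cells that express a gene and less of its RNA per cell cannot be told apart. The intervals cover counting error only, and those of NELFE replicates 1 and 2 overlapped. The group means were 1.16 ± 0.073% (SD, n = 3), 1.09 ± 0.060% (n = 3) and 0.986 ± 0.012% (n = 2). Mitochondrially encoded RNA held 4.62, 3.72 and 3.48% of counts in the control libraries. It held 4.26, 4.47 and 4.36% in the NELFE knockdown, inside the control range, and 4.81 and 5.01% in the NELFB knockdown, above it. Its part in the differences in the sum of the 10 genes was not tested.

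**Figure D1:**
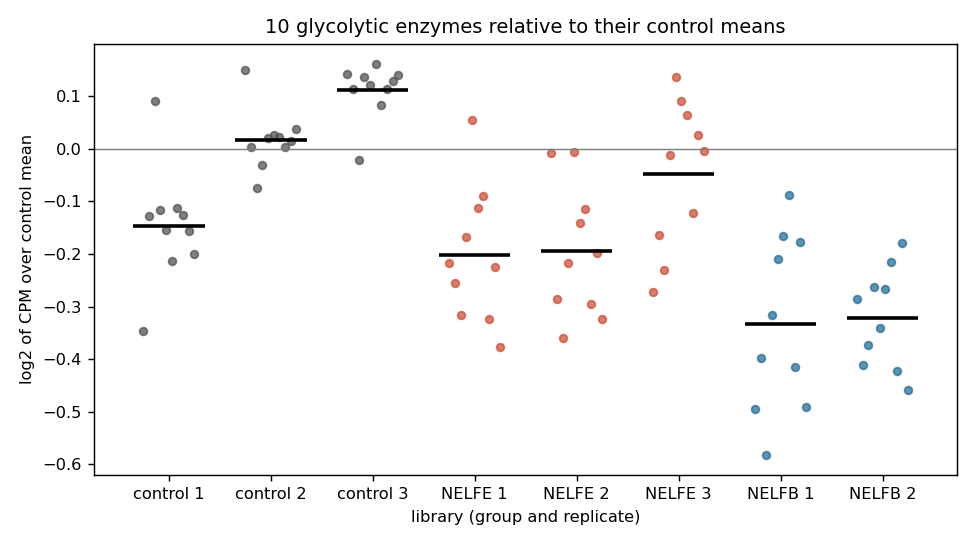
Each point is 1 of the 10 glycolytic enzyme mRNAs in 1 library (x axis: group and replicate), as the log2 ratio of its CPM to its mean over the control libraries (y axis), and black bars are the means of the 10. The bars lie at -0.15, 0.02 and 0.11 in the control libraries, at -0.20, -0.19 and -0.05 in the NELFE knockdown and at -0.33 and -0.32 in the NELFB knockdown.

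The enzymes also moved together between libraries of 1 group, as the plot of log2 ratios by library shows. Control replicate 1 had the lowest control value for 9 of the 10 genes and control replicate 3 the highest for 8. NELFE replicate 3 was highest of its group for 9 of 10. No batch is named in the labels, so nothing could be computed within batches.

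When all 5 knockdown libraries were compared with the 3 control libraries, 3 of the 10 enzymes fell, PFKP, GPI and ENO1, and none rose. Across all 16367 genes tested, 12.7% were called lower and 13.3% higher (edgeR quasi-likelihood test, adjusted p under 0.05). All 10 fitted values were below 0, against 50.3% of all genes, with a median log2 fold change of -0.22 against -0.002 over all genes. The share of genes that fell was, however, larger among abundant genes. Of the 1164 genes at least as abundant in control cells as HK2, the least abundant enzyme by CPM, 26.7% were called lower and 70.4% had a fitted value below 0, with a median of -0.11. The count of 3 in 10 was thus near the share among these genes, which were not matched to the level of each enzyme. The median of the enzymes was -0.14 without control replicate 3 and -0.28 without control replicate 1.

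**Figure D2:**
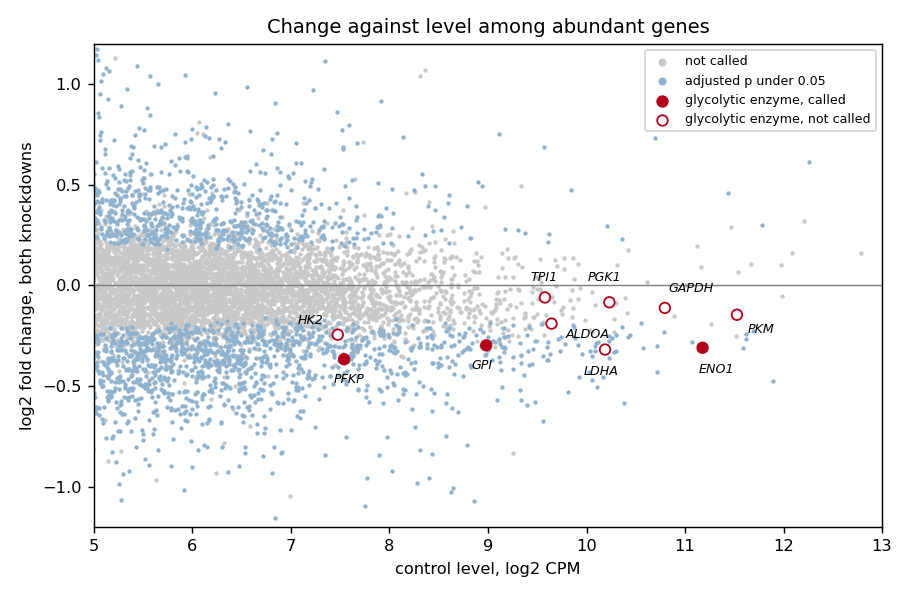
Each point is 1 gene, with its control level as log2 CPM (x axis) and its log2 fold change in both knockdowns against control (y axis), blue where the adjusted p was under 0.05. The 10 glycolytic enzymes, circled in red, all lie below 0, and PFKP, GPI and ENO1 are filled because they were called. Genes below 5 on the x axis or beyond 1.2 on the y axis are not drawn.

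PFKP (chromosome 10 from 3066333 to 3137718), which carries out the committed step, had 198.0, 176 and 183 CPM in the control libraries, 149, 145 and 159 CPM in the NELFE knockdown and 124 and 144 CPM in the NELFB knockdown. All 5 knockdown libraries lay below the lowest control library. Its log2 fold change was -0.37 (SE 0.080, 95% interval -0.54 to -0.19, edgeR adjusted p = 0.00695), and its level fell by 22.5%. This call held in all 16 alternative settings, with each library left out in turn among them, at adjusted p-values of edgeR or DESeq2 from 0.000237 to 0.0194.

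GPI (chromosome 19 from 34359480 to 34402413), which interconverts glucose 6-phosphate and fructose 6-phosphate, had 463, 507 and 547 CPM in control cells. It had 424, 415 and 451 CPM in the NELFE knockdown and 384 and 380.4 CPM in the NELFB knockdown. The groups again did not overlap, and GPI and PFKP were the 2 enzymes of 10 for which this was so. Every knockdown library lay below every control library for 14.0% of all genes tested, a share not computed for abundant genes alone. GPI fell by 0.30 on the log2 scale (SE 0.077, 95% interval -0.47 to -0.13, edgeR adjusted p = 0.0160). The call was lost without control replicate 2 or control replicate 3, where the log2 fold change was -0.30 and -0.24.

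ENO1 (chromosome 1 from 8861000 to 8879190), which makes phosphoenolpyruvate, had 2123, 2323 and 2506 CPM in control cells, 1851, 1888 and 2129 CPM in the NELFE knockdown and 1738 and 1729 CPM in the NELFB knockdown. NELFE replicate 3 was just above control replicate 1, and the other 4 knockdown libraries were below all control libraries. ENO1 fell by 0.31 on the log2 scale (SE 0.085, 95% interval -0.50 to -0.12, edgeR adjusted p = 0.0202), and was not called without control replicate 2, control replicate 3 or NELFB replicate 1 (log2 fold changes -0.31, -0.25 and -0.28).

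LDHA (chromosome 11 from 18394560 to 18408425), which reduces pyruvate to lactate, had a log2 fold change close to that of ENO1 with a larger SE. Its levels were 1016, 1198 and 1287 CPM in control cells, 898, 932 and 1163 CPM in the NELFE knockdown and 830.0 and 849 CPM in the NELFB knockdown. NELFE replicate 3 again lay within the control range. The log2 fold change was -0.32 (SE 0.113, 95% interval -0.56 to -0.07) and missed the threshold with an edgeR adjusted p of 0.0565. LDHA was called in 6 of the 16 alternative settings, among them DESeq2 and the fit without NELFE replicate 3, where it was -0.42.

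**Figure D3:**
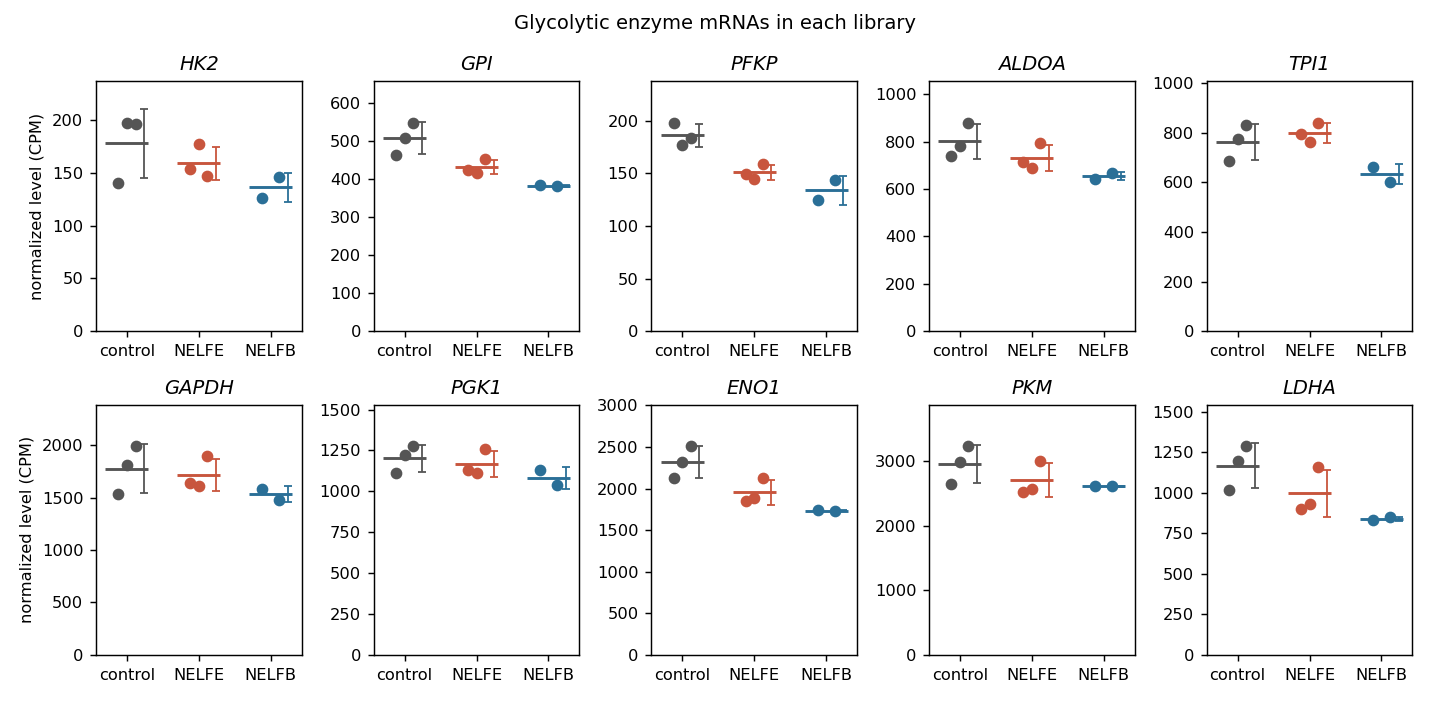
Each panel shows 1 glycolytic enzyme mRNA, with the 3 groups on the x axis and the normalized level in CPM on a y axis that starts at 0. Points are libraries, horizontal lines group means and vertical bars 1 SD. For GPI and PFKP all 5 knockdown points lie below the 3 control points, while for TPI1 only the 2 NELFB points do.

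The other 6 enzymes were not called in the pooled comparison. HK2 (chromosome 2 from 74834127 to 74893359), which phosphorylates glucose, had the widest spread for its level, with 140.0, 197 and 196 CPM in the control libraries and 126 to 177 CPM in the knockdowns. Its log2 fold change was -0.25 (95% interval -0.52 to 0.03), and without control replicate 1 it was -0.39 and called. ALDOA (chromosome 16 from 30064164 to 30070457), which splits fructose 1,6-bisphosphate, was at 738 to 880 CPM in control cells and 643 to 794 CPM in the knockdowns, with a log2 fold change of -0.19 (95% interval -0.37 to -0.01, edgeR adjusted p = 0.113). Without NELFE replicate 3 the ALDOA value was -0.24 and was called (edgeR adjusted p = 0.0254). PKM (chromosome 15 from 72199029 to 72231819), which makes pyruvate and ATP, was at 2649 to 3225 CPM against 2527 to 3008 CPM, a log2 fold change of -0.15 (95% interval -0.33 to 0.04). The counts are per gene, so the PKM1 and PKM2 splice forms are not separated. PGK1 (chromosome X from 77910739 to 78129295), which makes the first ATP of the payoff steps, was at 1112 to 1275 CPM against 1036 to 1258 CPM, a log2 fold change of -0.08 (95% interval -0.25 to 0.08). Without control replicate 1 and without control replicate 3, respectively, the value was -0.25 and -0.12 for ALDOA, -0.22 and -0.079 for PKM, and -0.14 and -0.042 for PGK1.

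GAPDH (chromosome 12 from 6534512 to 6538374) had 1532, 1810 and 1987 CPM in control cells, 1643, 1610 and 1892 CPM in the NELFE knockdown and 1584 and 1477 CPM in the NELFB knockdown. Only NELFB replicate 2 was below the lowest control library. The log2 fold change was -0.11 (SE 0.098, 95% interval -0.33 to 0.10, edgeR adjusted p = 0.429), so a fall of up to 0.33 on the log2 scale lies within its interval. For GAPDH it was -0.21 without control replicate 1 and -0.026 without control replicate 3. Divided by GAPDH, 5.34% of NELFE mRNA and 4.46% of NELFB mRNA were left, against 5.24% and 3.88% with TMM normalization.

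TPI1 (chromosome 12 from 6867119 to 6870948), which interconverts the triose phosphates, was the enzyme on which the knockdowns were furthest apart. It had 687, 775 and 831 CPM in control cells, 794, 761 and 840.2 CPM in the NELFE knockdown and 661 and 603 CPM in the NELFB knockdown. The NELFE libraries lay inside or just above the control range and both NELFB libraries below it. Its pooled log2 fold change was -0.06 (95% interval -0.30 to 0.18), and it turned to 0.0021 without control replicate 3 and to 0.0042 without NELFB replicate 2.

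Against control alone, the NELFE knockdown had 1 enzyme called, PFKP, with a log2 fold change of -0.30 (SE 0.081, edgeR adjusted p = 0.0333). Of all 16852 genes tested in this model, 7.04% were called lower and 7.92% higher. Fitted values were below 0 for 9 of the 10, against 50.7% of all genes, with TPI1 the exception at 0.06, and the median was -0.15. Of the 1164 abundant genes, 68.1% had a fitted value below 0 and 14.8% were called lower. GPI at -0.23 and ENO1 at -0.24 had edgeR adjusted p-values of 0.0695 and 0.0818. GPI and PFKP had all NELFE libraries below all control libraries, against 16.3% of all genes, a share not computed for abundant genes alone. The PFKP call held in 3 of 8 fits that left out 1 library, namely without NELFE replicate 3 or either NELFB library, and GPI, ENO1 and LDHA were called as well without NELFE replicate 3. Over these 8 fits the PFKP log2 fold change stayed between -0.34 and -0.25.

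The NELFB knockdown had 4 enzymes called lower, PFKP, LDHA, ENO1 and GPI, where 8.88% of all genes were called lower and 10.6% higher. The log2 fold changes were -0.47 for PFKP (edgeR adjusted p = 0.00664), -0.48 for LDHA (edgeR adjusted p = 0.0286), -0.42 for ENO1 (edgeR adjusted p = 0.0151) and -0.40 for GPI (edgeR adjusted p = 0.0116). Their levels fell by 28.0, 28.1, 25.2 and 24.4%, in the same order. HK2 at -0.39, ALDOA at -0.29, TPI1 at -0.27, GAPDH at -0.21, PKM at -0.18 and PGK1 at -0.15 were not called. The median of the 10 was -0.34, against -0.15 for the 1164 genes at least as abundant, of which 21.2% were called lower and 72.1% fitted lower. For 7 enzymes, all but HK2, GAPDH and PGK1, both NELFB libraries lay below all control libraries, against 24.9% of all genes. That share was not computed for the abundant genes, more of which were fitted lower. With 2 libraries in the group these calls depended on which libraries were used. Of the 10 enzymes, 2 were called without control replicate 2 and 8 without control replicate 1. Leaving out either NELFB library leaves 1 in that group, so the spread then comes from the other groups alone. For those fits only log2 fold changes are given. With 1 library left out, the log2 fold changes ranged from -0.58 to -0.39 for PFKP, -0.57 to -0.40 for LDHA, -0.48 to -0.36 for ENO1 and -0.46 to -0.34 for GPI.

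**Figure D4:**
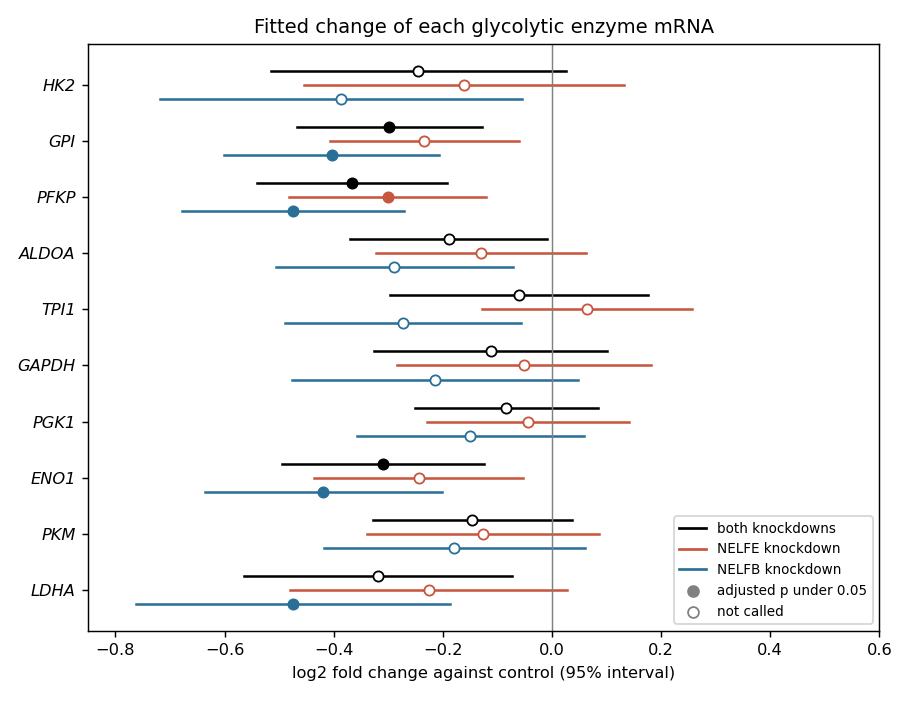
For each glycolytic enzyme (y axis), points are fitted log2 fold changes against control (x axis) and lines their 95% intervals, for both knockdowns pooled (black), NELFE (red) and NELFB (blue). Filled points had an adjusted p under 0.05, and the blue point lies left of the red point for all 10 genes.

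The NELFE and NELFB comparisons share their control libraries, so the difference between the knockdowns was tested directly. No enzyme was called in that test, where 0.237% of all genes were called higher and 0.0771% lower in the NELFE knockdown, and DESeq2 called none of the 10 either. All 10 fitted values were higher with the NELFE than with the NELFB guide RNA, by 0.05 (PKM) to 0.34 (TPI1) on the log2 scale, with a median of 0.17. Of all genes, 51.3% were fitted lower in the NELFE knockdown, and of the 1164 abundant genes 30.8%. TPI1 was the 1 enzyme with an unadjusted p under 0.05, with a 95% interval of 0.12 to 0.55 and an edgeR adjusted p of 0.556. The interval was -0.04 to 0.53 for LDHA, -0.03 to 0.38 for PFKP and -0.19 to 0.29 for PKM, so differences of these sizes cannot be told from 0 with these libraries.

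Several steps have more than 1 isoenzyme in these cells, and the share of each per unit of length was computed from TPM after the main values had been seen. PFKP made up 41.5, 41.3 and 41.7% of PFKP, PFKL and PFKM together in the control libraries. In the NELFE libraries the share was 37.4, 36.8 and 41.1%, and in the NELFB libraries 34.1 and 36.9%. All knockdown libraries were below the controls, though NELFE replicate 3 was so by less than 1 percentage point. The means were 41.5 ± 0.22% (SD, n = 3) and 37.3 ± 2.49% (n = 5), with a two-sided exact permutation p of 0.0357, the smallest that 3 against 5 libraries can give, and 0.179 after adjustment over the 5 families compared. LDHA was the minor partner of LDHB, with 29.7 ± 1.31% of their sum in control cells (n = 3) and 27.1 ± 1.84% in the knockdowns (n = 5, exact permutation p = 0.0714, adjusted 0.179). HK2 held 51.2 ± 4.31% of HK1 and HK2 in control cells and 47.4 ± 3.62% in the knockdowns (exact permutation p = 0.286, adjusted 0.476). With canonical transcript lengths its share in control cells was 36.7%, so which hexokinase is the major form depends on the length used. ALDOA made up 99.2% of ALDOA and ALDOC and ENO1 90.7% of ENO1 and ENO2 in control cells, against 99.1% and 90.4% in the knockdowns.

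The genes around the pathway were described from lists compiled from textbook knowledge, here in the pooled comparison, where 13.3% of all genes were called higher and 12.7% lower. Of 12 tested other isoenzymes, 1 fell, the neuronal-type enolase ENO2 at -0.27 (edgeR adjusted p = 0.0168), from 188 to 207 CPM in control cells to 149 to 176 CPM. The most abundant of this list, LDHB at 1872 TPM in control cells, had -0.14 and was not called, and the list's median was -0.05. Of 11 tested glucose and lactate transporters, 2 rose and none fell. SLC16A1, the monocarboxylate transporter MCT1 that carries lactate and pyruvate, rose by 0.36 (edgeR adjusted p = 0.00780), from 231, 292 and 263 CPM in control cells to 321 to 362 CPM in the 5 knockdown libraries, with no overlap. SLC16A8, another transporter of this family, rose by 1.41 (edgeR adjusted p = 0.0131) from under 1 CPM. The most abundant of the list was BSG, the chaperone of these transporters, at 525 TPM in control cells, with a log2 fold change of 0.16 that was not called.

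Among 6 tested regulators of glycolytic flux, TXNIP, which restrains glucose uptake, rose by 0.98 (edgeR adjusted p = 0.0369) and PFKFB4, which sets the level of an activator of phosphofructokinase, fell by 0.62 (edgeR adjusted p = 0.0225). TXNIP stood at 57.2, 37.4 and 26.5 CPM in control cells, 88.2, 76.1 and 47.6 CPM in the NELFE knockdown and 98.6 and 86.6 CPM in the NELFB knockdown. Its level in NELFE replicate 3 lay within the control range. PFKFB3 was at 45.2 TPM in control cells and -0.02. Of 13 tested genes of the pyruvate dehydrogenase complex, its carrier and its regulators, 3 rose and 3 fell. The phosphatase PDP1 (0.77), the kinase PDK2 (0.47) and the pyruvate carrier subunit MPC2 (0.27) rose, and the phosphatase PDP2 (-0.33), the core subunit DLAT (-0.30) and the tethering subunit PDHX (-0.27) fell. The complex's most abundant genes, PDHA1 at 248 TPM and DLD at 151 TPM, had -0.04 and 0.03.

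Of 3 tested gluconeogenesis genes, PC, which carboxylates pyruvate, rose by 0.47 (edgeR adjusted p = 0.00585) and PCK2, the mitochondrial enzyme that makes phosphoenolpyruvate, fell by 1.27 (edgeR adjusted p = 0.00257). PCK2 had 104, 51.1 and 52.7 CPM in control cells, 32.5, 29.5 and 28.2 CPM in the NELFE knockdown and 26.4 and 27.6 CPM in the NELFB knockdown. Control replicate 1 was far above the other controls, and the groups did not overlap. G6PC3 was at 37.2 TPM in control cells and 0.07. Of 8 tested pentose phosphate enzymes, which branch off at glucose 6-phosphate, 2 fell, TKT and PGD. Transketolase (TKT) fell by 0.39 (edgeR adjusted p = 0.00295), from 608 to 679 CPM in control cells to 438 to 523 CPM, and PGD, an enzyme of the oxidative branch, fell by 0.22 (edgeR adjusted p = 0.0199), from 228 to 244 CPM to 199 to 217 CPM. For both genes the knockdown and control libraries did not overlap.

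Of 20 tested tricarboxylic acid cycle genes, OGDH (0.24) and SDHA (0.19) rose, and IDH1 (-0.35), SDHB (-0.29), CS (-0.26) and SUCLG2 (-0.25) fell. The most abundant were MDH2 at 436 TPM in control cells, with -0.15 and not called, and CS, the entry enzyme, at 327 TPM. The median of this list was -0.02. Among 10 tested transcriptional regulators of glycolytic genes, none rose and ESRRA (-0.42) and SP1 (-0.19) fell. MYC, the most abundant at 625 TPM in control cells, had 0.14 (95% interval -0.43 to 0.71) and spread from 659 to 1256 CPM within the control group. Of 5 tested genes of oxygen sensing, HIF1AN, which hydroxylates HIF1, rose by 0.23 and VHL, which marks it for degradation, fell by 0.21, while EGLN1 had 0.05.

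Of 20 tested hypoxia-inducible genes outside the 10 enzymes, 3 rose and 5 fell. BNIP3L (0.47), KDM3A (0.24) and P4HA1 (0.21) rose, and the 3 with the lowest log2 fold change were BHLHE40 (-0.79), PFKFB4 and VEGFA (-0.45), with ERO1A (-0.26) and BNIP3 (-0.21) also called. VEGFA, the vascular growth factor, went from 61.8 to 68.7 CPM in control cells to 43.3 to 53.4 CPM with no overlap (edgeR adjusted p = 0.00285). Their median was 0.04, against -0.22 for the glycolytic enzymes, and levels were not matched between these lists. Of 12 genes often used as references in expression assays, 2 rose and 2 fell, among them YWHAZ (0.22), SDHA (0.19) and RPLP0 (-0.33). RPLP0, a ribosomal stalk protein at 1278 TPM, had 1224 to 1264 CPM in control cells and 954 to 1027 CPM in the knockdowns. ACTB, the most abundant at 2766 TPM, had 0.07 and ranged from 2371 to 3641 CPM over the 8 libraries. Of the other NELF subunits, NELFA fell by 0.36 (edgeR adjusted p = 0.00563) and NELFCD had 0.17 (edgeR adjusted p = 0.0748).

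**Figure D5:**
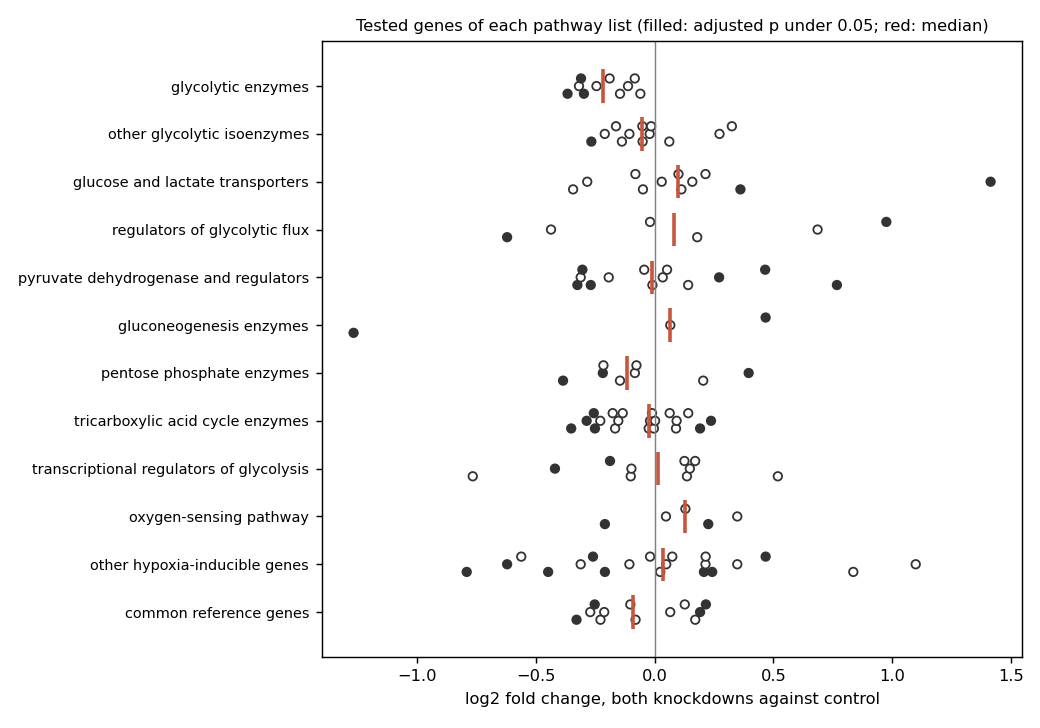
Each row is a list of genes around glycolysis (y axis), each point a tested gene at its log2 fold change in both knockdowns against control (x axis), filled where the adjusted p was under 0.05, and the red bar is the median. Apart from the list of NELF subunits and control target, whose median was -0.36, the glycolytic enzymes have the lowest median, -0.22. Levels were not matched between lists, and the 1164 genes at least as abundant in control cells as HK2 had a median of -0.11. All glycolytic enzymes lie left of 0, while the other lists have points on both sides.

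The profile of the 10 enzymes over the 8 libraries, as the mean of their centred log2 CPM, was also compared with 6690 genes with a mean log2 CPM of at least 5. Among the closest genes outside all lists were METTL2B, a tRNA methyltransferase, TIMM50, a subunit of the mitochondrial import machinery, EIF3M, a subunit of a translation initiation factor, and RBBP4, a histone-binding protein. Their root mean square differences from the profile were 0.027, 0.028, 0.030 and 0.033 on the log2 scale, against a median of 0.168 over all genes compared. All 4 had control replicate 1 lowest of the controls and both NELFB libraries lowest of all 8. The profile by which they were picked has the same pattern, so this likeness follows from the choice. The members themselves differed from their mean by 0.033 (ALDOA) to 0.144 (HK2), with PFKP at 0.137 and TPI1 at 0.103, so that 3 of the 10 departed from it most.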

How the data were processed

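RNA-seq measured polyadenylated RNA in 8 libraries. The deposited counts are raw numbers of single-end 65-base reads per gene. The submitters' processing notes name STAR 2.5.4a, FastQC 0.11.6 and GRCh38, and the annotation was Gencode v24. Symbols, positions and lengths were taken from GENCODE v44 by identifier, which matched 97.4% of genes with reads and 99.9% of counts. Promoters were read from GRCh38 before canonical starts. Library totals ranged from 22037423 to 24444185 counts. Wilson intervals cover counting error only.

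Tests used edgeR 4.0.16 under R 4.3.3, with TMM factors, the filterByExpr filter and a robust quasi-likelihood fit. P-values were adjusted over all genes by Benjamini-Hochberg, and genes were called at an adjusted p under 0.05. A model of 2 groups gave the pooled comparison and a model of 3 groups the others. DESeq2 1.42.0, other normalizations, filters and lengths, and each library left out were alternatives. Isoenzyme shares were added after the values were seen. The 10 enzymes and 12 other lists were chosen with earlier results of these data known. Of each other list, the text names up to 3 called genes per direction by size of change and the 2 most abundant, plus NELF subunits, ADAM22 and genes of most similar profile. Some genes that meet this rule are not reported here. ERO1A, BNIP3 and SUCLG2 fall outside this rule and were named after their values were seen.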

Additional observations from a re-analysis of the deposited data

How the results depend on the processing

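Every call of an enzyme against control, in the fits reported and under all alternatives tried, was in the lower direction. In the pooled comparison the count of 3 became 5 with the replicate number as a block, under which ALDOA was called (-0.16, edgeR adjusted p = 0.0464). Leaving out 1 library gave 1 to 5 in the pooled comparison and 0 to 4 with NELFE. With NELFB it gave 2 without control replicate 2 and 8 without control replicate 1. Counts are not given where 1 NELFB library was left. The NELFE count of 1 became 2 with library size alone (GPI and ENO1, without PFKP) and 4 with the replicate block. The NELFB count of 4 became 7 with no filter on low counts and was 6 with the replicate block. No enzyme was called between the knockdowns under any alternative. The cause of these changes was not tested. The order of control levels kept 6 of 10 places with canonical transcript lengths. Directions turned for TPI1 in the pooled comparison (0.0021 without control replicate 3, 0.0042 without NELFB replicate 2, range with 1 library left out -0.13 to 0.0042), TPI1 with NELFE (-0.0091 without control replicate 1, range to 0.13), GAPDH with NELFE (0.037 without control replicate 3, range from -0.15) and PKM between the knockdowns (-0.026 with the replicate block, -0.032 without NELFE replicate 3, range to 0.098). The isoenzyme share of ALDOA, at -0.047 percentage points, turned to 0.0034, 0.065 and 0.039 without control replicate 2, control replicate 3 or NELFB replicate 1 (lowest -0.21), and that of ENO1, at -0.22, to 0.25 without control replicate 3 (lowest -0.87). The PFKP share difference of -4.26 percentage points stayed between -5.21 and -3.48 with 1 library left out, where 7 libraries cannot give an exact permutation p below the threshold. It was -4.20 with canonical lengths (exact permutation p = 0.0714).

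The replicate numbers were checked as pairs. Deviations from group means correlated by 0.275, 0.0542 and 0.451 between same-numbered control and NELFE libraries, by -0.021 and -0.0127 between control and NELFB libraries, and by 0.103 and 0.199 between NELFE and NELFB libraries. Not every pair was over 0.1, and the main fits did not use the replicate number. With 2 NELFB libraries the deviations mirror each other (-0.021 and 0.021 with control replicate 1), so these pairs cannot show a pairing. Whether same-numbered libraries were handled together cannot be told from these values. Control replicate 1 and NELFE replicate 1, and control replicate 3 and NELFE replicate 3, correlated best with their own numbers, and NELFE replicate 2 correlated more with control replicate 1 (0.231). Over all genes the block raised the called genes from 4255 to 5636 in the pooled comparison, from 2520 to 4763 with NELFE and from 3290 to 4811 with NELFB. Without control replicate 2 the pooled count was 2688. With 2 NELFB libraries and changes under 0.5 on the log2 scale, a missed call does not show that an enzyme stayed the same.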
